A study of Mus musculus with 12 samples.

Results

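Among the regions listed for Runx1b in mouse haemogenic endothelium, 365 carried the name of more than 1 protein-coding gene. A region is a stretch of the genome that the authors listed with reads from DamID-seq, and it counted as shared when its exact coordinates stood in 2 or more protein-coding rows with different gene identifiers. The table holds 8133 distinct regions, of which 7154 had at least 1 protein-coding gene, so shared regions made up 4.49% of all regions and 5.10% of those with a protein-coding gene. The other 6789 had a single protein-coding gene. No read value was used to choose the shared regions.

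Haemogenic endothelium is a vessel lining that gives rise to blood. It was grown here from mouse embryonic stem cells of strain 129, by way of FLK1+ cells of embryoid bodies on d3.25 and 2 days of liquid blast culture. DamID marks the surroundings of a DNA-bound protein through an attached bacterial enzyme, Dam, which adds a methyl group to the adenine of GATC. The labels describe 12 libraries in 2 groups of 6, both from lines that lack Runx1 (runx1-/-): iRunx1b::Damko, with the fusion of Runx1b to Dam, and iDamko, with Dam alone as control. Each group had 3 biological replicates and 3 further libraries named technical replicates, with 2 libraries per group from cKIT+ TIE2+ CD41- cells of flow cytometry and 4 from magnetic isolation of FLK1+ cells. Reads are listed per gene, over all libraries, with no value for a single library. The depth of each library is therefore unknown, no value below has a replicate error, and reads per kilobase (kb) of region are not an enrichment over Dam.

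Mammalian genes often lie close together. Some neighbours are transcribed away from each other from start sites so near that they use 1 stretch of DNA as promoter, and such divergent pairs often hold genes that every cell needs. Other genes sit wholly inside an intron of a larger host gene. In such places a single bound stretch cannot be given to 1 gene by position alone. Runx1 itself binds, with its partner Cbfb, to short sites that include the letters TGTGGT and TGCGGT.

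The stretches between the start sites of divergent neighbours at shared regions show how short the DNA of such a pair can be. For 35 pairs of divergent neighbours a stretch of 40 to 250 bases between the closest RefSeq starts was taken. These stretches measured 49 to 234 bases, with a median of 104 bases and a median GC content of 60.5%. A few other divergent neighbours with starts as near, all with overlapping gene bodies, are not among the 35, such as Surf1 and Surf2 (122 bp). The first 5 sequences below are those whose regions had the most reads per kilobase among the 35, from 1670.3 down to 1057, the sixth belongs to a pair of genes of mitochondrial protein synthesis, and the last 3 are the only stretches of the 35 with TGTGGT or TGCGGT. They are RefSeq sequence of build GRCm38.p6, a reference of another mouse strain, plus strand, written 5′ to 3′, from just after the start of the first gene, on the minus strand, to just before that of the second. Capitals mark GATC and, on either strand, the Runx letters TGTGGT or TGCGGT, and no capitals of the stretches shown belong to both. Pradc1 is listed in the deposited table as 1700040I03Rik. The set was chosen after the values were seen.
Pde6d and Cops7b, chr1:86582786-86582920: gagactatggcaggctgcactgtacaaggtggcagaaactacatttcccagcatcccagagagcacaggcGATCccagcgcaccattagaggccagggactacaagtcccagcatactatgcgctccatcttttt
Tnfaip1 and Ift20, chr11:78536261-78536360: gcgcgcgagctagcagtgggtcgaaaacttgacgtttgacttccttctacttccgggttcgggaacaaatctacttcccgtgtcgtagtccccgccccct
Npc2 and Isca2, chr12:84773113-84773269: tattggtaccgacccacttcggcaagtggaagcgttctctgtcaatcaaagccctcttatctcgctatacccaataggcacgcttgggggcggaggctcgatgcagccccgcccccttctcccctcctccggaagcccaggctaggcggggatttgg
Ppp1r15a and Plekha4, chr7:45526269-45526329: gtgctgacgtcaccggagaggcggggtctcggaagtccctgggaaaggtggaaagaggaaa
S100a1 and S100a13, chr3:90514331-90514434: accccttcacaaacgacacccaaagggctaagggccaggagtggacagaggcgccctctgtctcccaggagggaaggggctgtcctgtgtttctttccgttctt
Mrps12 and Sars2, chr7:28741822-28741967: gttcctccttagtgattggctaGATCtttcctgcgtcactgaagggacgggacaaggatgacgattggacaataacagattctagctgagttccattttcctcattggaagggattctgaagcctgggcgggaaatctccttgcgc
Bcl2l12 and Irf3, chr7:44997580-44997647: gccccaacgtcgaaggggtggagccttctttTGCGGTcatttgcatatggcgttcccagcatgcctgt
Pradc1 and Cct7, chr6:85451303-85451504: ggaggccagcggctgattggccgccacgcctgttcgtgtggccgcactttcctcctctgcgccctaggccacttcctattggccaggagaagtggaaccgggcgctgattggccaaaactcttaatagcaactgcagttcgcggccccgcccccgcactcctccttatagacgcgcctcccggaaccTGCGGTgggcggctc
Cage1 and Riok1, chr13:38036938-38036988: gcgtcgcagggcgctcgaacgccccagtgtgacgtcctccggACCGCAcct

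GATC, the sequence Dam methylates, stood in 9 of the 35 stretches and TGTGGT or TGCGGT in 3. Of the bases before the start of all 17491 protein-coding genes with a window, cut to the length of the Pde6d and Cops7b stretch, 22.9% held GATC and 9.62% held TGTGGT or TGCGGT. At the length of the Bcl2l12 and Irf3 stretch the shares were 11.8% and 4.83%, and at that of Pradc1 and Cct7 33.8% and 14.4%. In whole promoter windows, of 250 bases before and 50 after a start, TGTGGT or TGCGGT stood at 26.0% of 480 genes of shared regions (22.2% to 30.2%, exact 95% intervals), at 20.8% of 3140 genes with unshared regions only (19.4% to 22.3%) and at 21.7% of all genes. Counted separately, TGCGGT stood at 13.1%, 9.33% and 7.39%, TGTGGT at 13.8%, 12.4% and 15.1%, and GATC at 52.1%, 47.5% and 46.9%. As a check of all 634 genes of shared regions this is void, since only 75.7% of them had a window, and the differences were not tested. In the 35 pairs the windows of both genes take in the stretch between the starts, so letters there count for both. The genes are thus not independent units, and the exact intervals do not take this into account. How often windows overlap in each set of genes was not analysed. A match of letters is not a binding site. The regions are given in mm9, and whether a region covers the stretch printed for its pair was not analysed here.

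Most gene pairs of shared regions that could be placed in RefSeq were immediate neighbours. The 365 regions named 634 protein-coding genes, 13.3% of the 4771 in the table, and 343 of them named 2 genes, 20 named 3 and 2 named 4. They formed 369 gene pairs, of which 338 shared 1 region, 20 shared 2 and 11 shared 3 or more. Both genes could be found in the RefSeq gene table of GRCm38.p6 for 300 pairs (81.3%), and in 248 of these (82.7%) no protein-coding gene lay between them. In 44 further pairs 1 to 3 genes lay between, and in 5 pairs 10 or more. Pairs not found in RefSeq, among them all those of AC114005.5, could not be placed. Pairs were counted by gene identifier, so the same RefSeq pair could count more than 1 time. This held for Flrt3 with Macrod2, for Fam63a with Prune, and for 3110082I17Rik with D830046C22Rik and with Gpr146.

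The gene bodies of neighbours at a shared region overlapped or lay within 1000 bp of each other in 202 of 248 pairs (81.5%), against 4012 of all 21874 neighbouring protein-coding pairs (18.3%). Among the 7376 neighbouring pairs with a region at 1 or both genes and none shared, it was 15.7%. The bodies themselves overlapped in 103 of the 248 pairs (41.5%), against 9.26% of all neighbours. The median gap was 0.0615 kb, against 14.1 kb. A pair entered the set because 1 region was assigned to both genes, which by itself can favour genes that lie close. The contrasts with all neighbours and with unshared pairs are thus not independent of how the pairs were chosen. Neither regions nor gene pairs are replicates and the table holds no value per library, so these shares, like those that follow, describe this list of regions and were not tested.

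Orientation was read from the strands of a pair in the order of the gene midpoints, with minus then plus called divergent. This takes in overlapping genes whose starts are far apart, such as Med12l and P2ry14 with starts 123784 bp apart. The strand of both genes was known for 183 of the 248 neighbouring pairs. Of these, 101 (55.2%, exact Clopper-Pearson 95% interval 47.7% to 62.5%) were divergent, 39 (21.3%) were convergent and 43 (23.5%) lay on the same strand. The 101 include repeats of Flrt3 with Macrod2 and of Fam63a with Prune, which the interval does not take into account. Among all 15015 neighbouring pairs with known strand, 24.3% (23.7% to 25.0%) were divergent and 52.1% lay on the same strand. Among the 4930 such pairs with a region but none shared, 25.2% were divergent. Divergent pairs with start sites within 1000 bp made up 75 of the 183 (41.0%), against 5.41% of all neighbours and 3.37% of those with an unshared region. The choice of pairs by a region assigned to both genes bears on this contrast too. Strand was known for only 73.8% of the neighbouring pairs, under the 80% a statement on all of them would need, so as a check of all pairs the orientation is void and the shares hold for the 183 pairs. If none of the other 65 pairs were divergent, the share would be 40.7%. Among all neighbouring pairs strand was known for only 68.6%, and their 24.3% was not bounded in this way. The 40.7% is therefore no bound on the contrast between the sets.

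**Figure D1:**
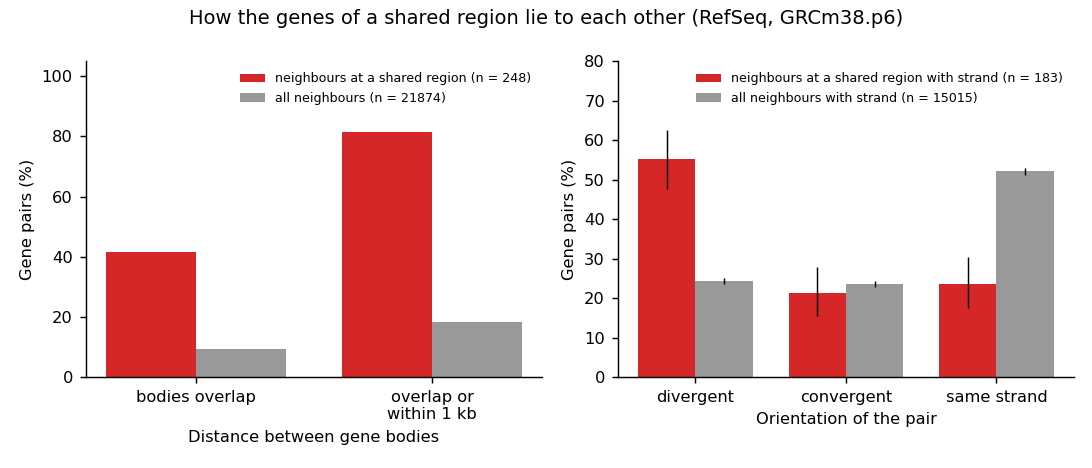
Left, the percentage of neighbouring gene pairs whose bodies overlap, or overlap or lie within 1 kb, for the 248 pairs at a shared region (red) and all 21874 neighbouring pairs (grey). Right, the percentage of pairs by orientation, for the 183 and 15015 pairs with known strand, with exact 95% intervals as lines: divergent pairs were 55.2% at shared regions and 24.3% among all.

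Regions of the 3 kinds of pair had similar values. The median was 667 reads per kb over 90 regions of divergent neighbours (quartiles 529 and 936), 724 over 26 regions of convergent ones (612 and 886) and 685 over 33 regions of neighbours on the same strand (512 and 877). The quartiles of each kind overlap those of the others. The median widths were 2300 bp over 97 regions, 2700 bp over 35 and 2550 bp over 35.

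Host genes with a smaller gene inside gave several of the overlapping pairs. Timp3, an inhibitor of matrix metalloproteinases, lies within the synapsin gene Syn3 and shared both of its 2 regions with it, at 517 reads per kb over the gene. The mediator-like gene Med12l shared a region with the nucleotide receptor P2ry14 (567 reads per kb) and another with P2ry12, the ADP receptor of platelets (307 reads per kb). Rb1, the retinoblastoma tumour suppressor, shared a region with the lysophosphatidic acid receptor gene Lpar6 at 772 reads per kb. Lrba shared one with Mab21l2 at 493 reads per kb. These values lie on both sides of the median of unshared regions.

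Shared regions were slightly wider than regions of a single protein-coding gene. Among regions with a count of their own, the reads per kb of both sets lay close together. The median width was 2300 bp (quartiles 1850 and 3150 bp) against 2100 bp (1650 and 2850 bp), and 220 shared regions (60.3%) were wider than the median of the unshared ones. A width of 4500 bp or more was found for 39 shared regions (10.7%) and 527 unshared ones (7.76%). Reads are deposited per gene, and a region has a count of its own only where it is the single region of a gene or where subtraction leaves 1 unknown. This held for 294 shared regions, 288 of them through a gene with a single region and 6 by subtraction, and for 3038 unshared ones.

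The median over these was 686 reads per kb (quartiles 529 and 955) for shared and 660 (490 and 906) for unshared regions, a difference of 26.6 that is small against either range. In reads the medians were 1671 and 1422, on regions of unequal width. On autosomes 1.78% of 281 shared regions (0.580% to 4.10%) lay under 300 reads per kb, against 6.32% of 2879 unshared ones (5.46% to 7.27%). On chromosome X, where a median of 132 reads per kb was found for unshared regions, 8 of 13 shared regions (61.5%, 31.6% to 86.1%) lay under 300 reads per kb, with a median of 233, and 104 of 155 unshared ones (67.1%, 59.1% to 74.4%). All intervals cover counting error only. Those of shares take each region as an independent unit, which was not tested. Those of reads do not take into account that PCR can copy 1 molecule into many reads. The limit of 300 reads per kb was not among the settings fixed beforehand.

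**Figure D2:**
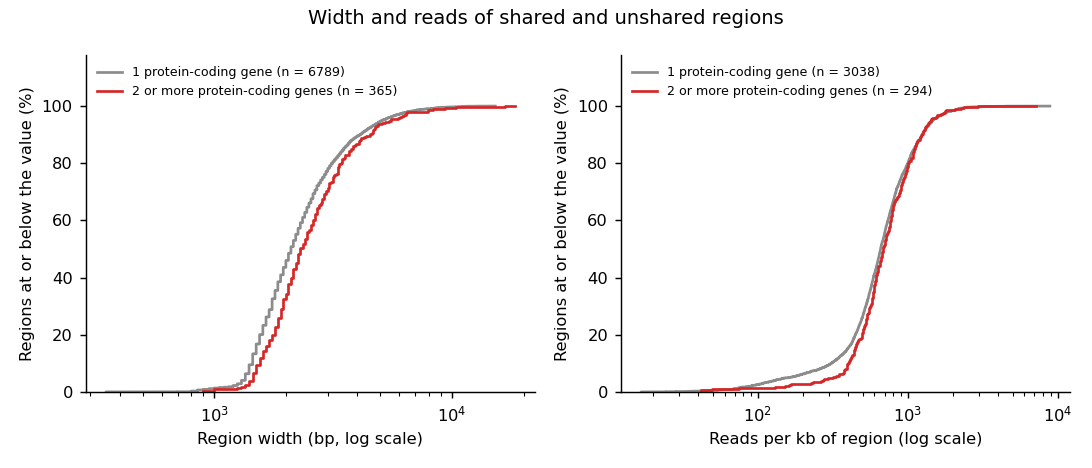
The percentage of regions at or below each width (left, bp, log scale) and each value of reads per kb (right, log scale), for regions of 2 or more protein-coding genes (red) and of 1 (grey). The red line of widths runs to the right of the grey one (medians 2300 and 2100 bp), and the lines of reads per kb nearly meet at their medians of 686 and 660. Reads per kb are shown only for the 294 and 3038 regions with a count of their own.

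The 22 regions with 3 or more protein-coding genes were wider still, with a median of 3100 bp, and 13 of them lay above the median reads per kb of unshared regions. All 22 had a count of their own, with a median of 806 reads per kb and values from 233 to 1435. A row of another biotype, such as a non-coding RNA or a pseudogene, stood beside the protein-coding rows in 7 of these 22 (31.8%, interval 13.9% to 54.9%). It did so in 34 of all 365 shared regions (9.32%, 6.54% to 12.8%) and in 291 of the 6789 unshared ones (4.29%, 3.82% to 4.80%). The sets were formed by the number of genes assigned to a region, which by itself can favour wide regions and dense places. The contrasts in width and in these shares are thus not independent of how the sets were formed, and were not tested.

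The regions with 4 genes held related or tightly packed genes. On chromosome 1 between 89990463 and 89991713 (mm9, as all coordinates of regions), 1 region named Ugt1a10, Ugt1a7c, Ugt1a8 and Ugt1a9, enzymes that conjugate glucuronic acid, and had 399 reads, or 319 reads per kb (95% Poisson interval 288 to 352). These genes are known to have first exons of their own and to share the rest. On chromosome 17 between 35198064 and 35204464, in the dense gene cluster of the major histocompatibility complex, another named Ddah2, which breaks down methylarginines, Ly6g6c, AU023871 and AC087117.1, at 453 reads per kb (437 to 470.0). Further along the same chromosome, a region of 4.75 kb named Ly6g6d, Ly6g6e and Ly6g6f, genes of the Ly6 family, at 1158 reads per kb.

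The widest shared region lay at Egfl7, a gene secreted by endothelium. It ran over 18350 bp of chromosome 2, between 26434874 and 26453224, and was also assigned to Agpat2, a lipid synthesis enzyme, to the model RP23-125H15.6 and to Mir126. It held 15069 reads at 821 reads per kb (808 to 834). The widest region with a single protein-coding gene measured 15200 bp. The microRNA of the locus, which lies in an intron of Egfl7 and is known from endothelium, is shown with its seed (bases 2 to 8) in capitals, from RefSeq, build GRCm38.p6.
mmu-miR-126a-3p: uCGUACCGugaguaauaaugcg

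The next widest shared region named Plcg1, a phospholipase that acts below growth factor receptors, and Zhx3. It spanned 16750 bp of chromosome 2 at 631 reads per kb. Bach2, a repressor in lymphoid cells, and D130062J21Rik shared 9350 bp of chromosome 4 at 1137 reads per kb. The 10400 bp region on chromosome 18 was named for Tnfaip8 under separate gene identifiers, and the 9400 bp region on chromosome 9 for Arid3b and Gm17231, and neither had a count of its own. Of the 369 pairs, 8 consisted of separate identifiers with the same symbol, and 100 (27.1%) held a gene with a predicted, clone or Rik name.

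The shared region with the most reads per kb stood far above the others. It named Gm10222 and Gm10925, both predicted genes, on chromosome 1 from 24618263 to 24623063, with 34666 reads, or 7221 reads per kb (7145 to 7297). Whether the reads of this region map to a single place in the genome was not analysed. The second highest region, of Fhod1, a formin that nucleates actin, and Slc9a5, a sodium-proton exchanger, had 2932 reads per kb (2850.1 to 3016). Mboat7 and Tsen34, a subunit of the tRNA splicing endonuclease, had 2361. The region of Ilk, the integrin-linked kinase, and Taf10, a subunit of TFIID, lay on chromosome 7 from 112886731 to 112889731 and had 2273 reads per kb (2219.6 to 2328), from 6822 reads.

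Lcat, a plasma enzyme of cholesterol transport, and Psmb10, an immunoproteasome subunit, had 2060.4 reads per kb. Ncbp1, of the nuclear cap-binding complex, and Tstd2 had 1812, and B3gnt2 and Commd1 1785 at 1 of their 2 shared regions. Cbx5, which encodes the heterochromatin protein HP1 alpha, and Hnrnpa1, an RNA-binding protein, had 1774. Lats2, a kinase of the Hippo pathway, and the exportin gene Xpo4 had 1726, and Pde6d and Cops7b, whose stretch is printed above, 1670.3. Each of these 10 regions had over 2 times the median of its own chromosome, from 2.14 times for Lats2 and Xpo4 to 11.4 times for Gm10222 and Gm10925. Of the 10 pairs, 5 were divergent in RefSeq with start sites from 36 to 624 bp apart.

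The shared region with the fewest reads per kb lay on chromosome X. It named Alas2, the enzyme that starts haem synthesis in red cells, and Apex2 (84 reads, 42.0 reads per kb). Nox1, which makes superoxide, and Xkrx, also on chromosome X, stood at 75.5 reads per kb. Relative to the median of chromosome X these regions stood at 0.325 and 0.585.

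**Figure D3:**
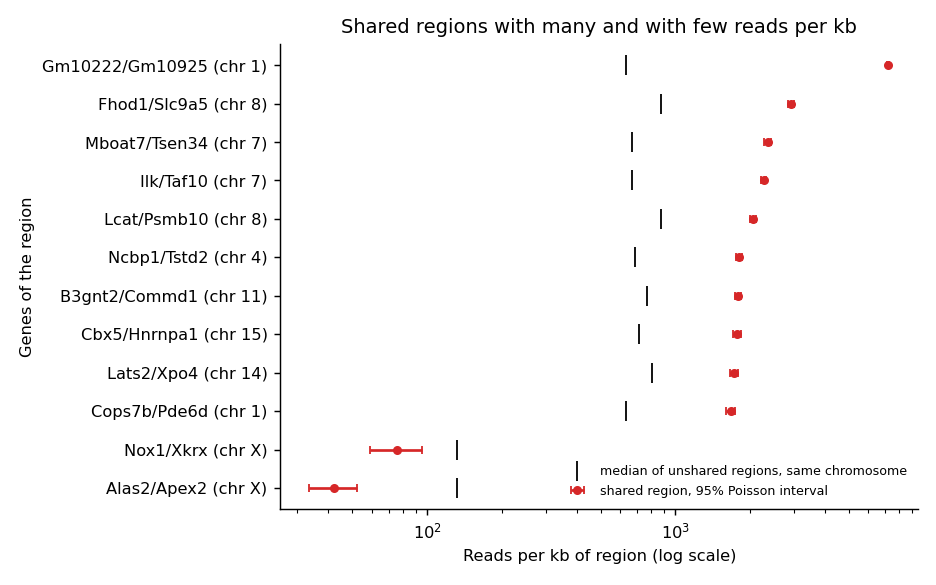
Reads per kb (log scale) of the 10 shared regions with the most and of 2 with few, each with its 95% Poisson interval (red), and the median of unshared regions of the same chromosome (black bars). The first 10 lie between 1670.3 and 7221, and the other 2, on chromosome X, at 42.0 and 75.5.

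A few genes shared regions with many others. Of the 634 genes, 556 (87.7%) had 1 partner gene, 66 had 2, 9 had 3, and 3 had 4 or more. These 3 were AC114005.5, Fgfr2, a receptor of fibroblast growth factors, and Arfip1, which binds small GTPases of the Golgi, and together they took part in 43 shared regions (11.8%).

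AC114005.5, a gene model listed as protein coding, had 59 regions between 122526598 and 126843448 on chromosome 8, a span of 4317 kb, and 25 of them were shared with 11 genes. Among these were 4 with Gse1, 4 with Fam38a, 3 with Zfpm1, a cofactor of GATA factors, and 3 with Cbfa2t3, a corepressor of the ETO family. Fgfr2 had 19 regions over 3032 kb of chromosome 7, and 12 of them were shared with 8 genes, including 3 with Tacc2, 3 with Fam53b and 1 with the corepressor gene Ctbp2. In RefSeq 30 protein-coding genes lie between Fgfr2 and Ctbp2, and the gene body of Fgfr2 measures 104 kb. Arfip1 had 8 regions over 1310 kb of chromosome 3 for a gene body of 86.7 kb, and shared 6 of them, 3 with Glt28d2 and 1 with Fbxw7, a subunit of a ubiquitin ligase.

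Every region inside the span of each of these 3 genes was assigned to it, which makes 59 of 59, 19 of 19 and 8 of 8. Among 1419 matched protein-coding genes with 2 or more regions, the span of the regions exceeded the RefSeq gene length by over 500 kb in 2, Fgfr2 and Arfip1. No source used here gives the authors' gene annotation or their rule for assigning regions to genes.

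**Figure D4:**
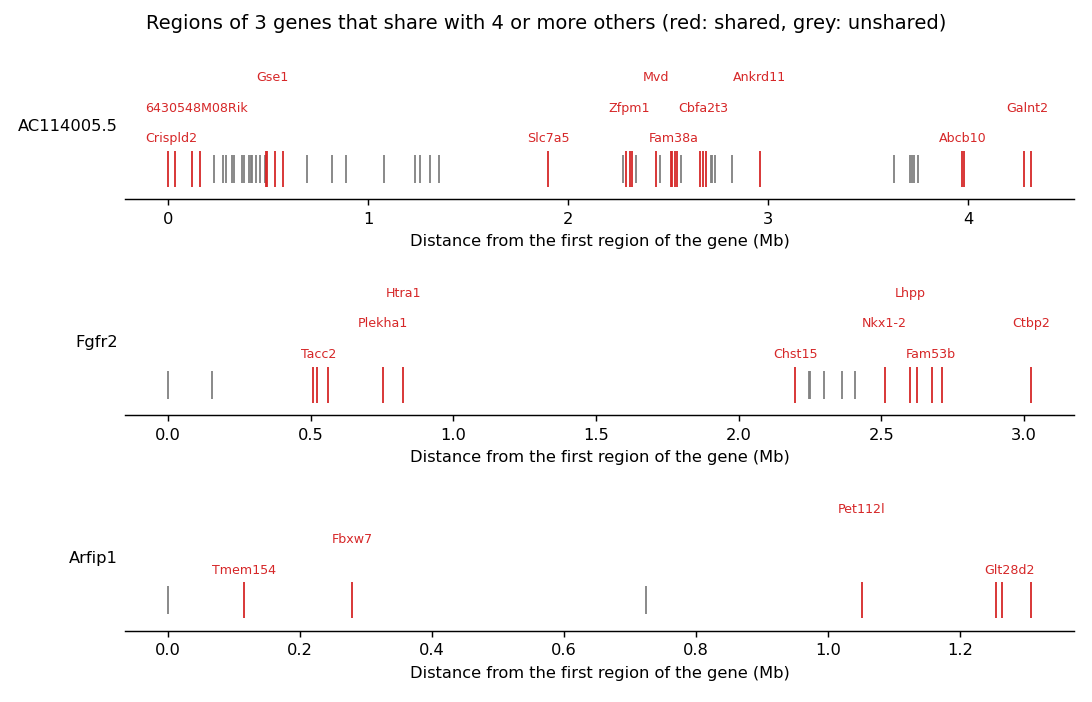
Positions of the regions of AC114005.5, Fgfr2 and Arfip1, as distance in Mb from the first region of each gene. Red bars are regions shared with the gene named above them and grey bars are regions with no other protein-coding gene, and the regions spread over 4317, 3032 and 1310 kb.

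Shared regions were unevenly spread over the chromosomes, and for chromosome 8 the share rested on 1 gene model. Of the regions with a protein-coding gene, 9.82% were shared on chromosome 8 (38 of 387, exact 95% interval 7.04% to 13.2%), 9.64% on chromosome 17 (24 of 249, 6.27% to 14.0%), 9.07% on chromosome 3 and 8.08% on chromosome 7. The lowest shares among autosomes were 1.34% on chromosome 18 (3 of 224) and 1.97% on chromosome 1 (10 of 508, 0.948% to 3.59%). Without AC114005.5, Fgfr2 and Arfip1 the share on chromosome 8 was 3.68%, on chromosome 7 5.54% and on chromosome 3 7.51%, and that on chromosome 17 did not move. The interval of chromosome 1 lies below those of chromosomes 3, 7, 8 and 17 over all genes.

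**Figure D5:**
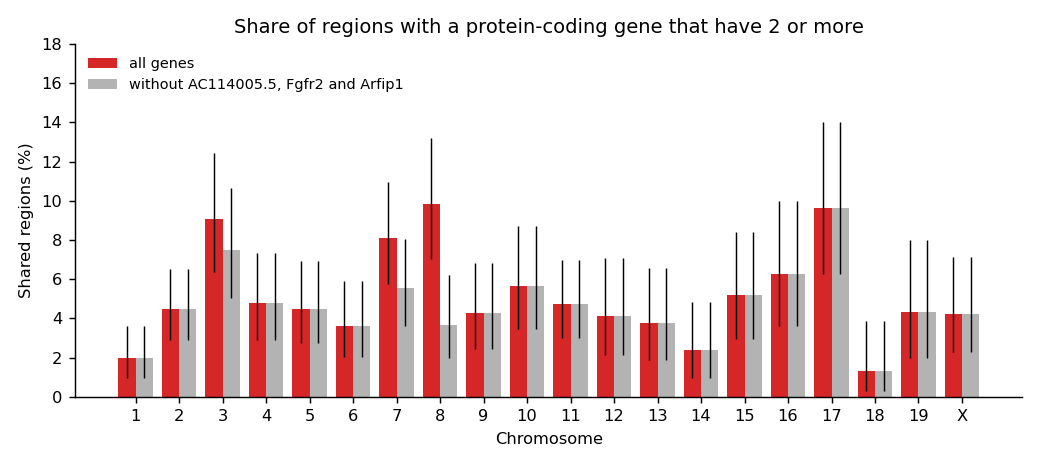
Percentage of regions with a protein-coding gene that are shared, by chromosome, with exact 95% intervals as lines, for all genes (red) and without AC114005.5, Fgfr2 and Arfip1 (grey). Chromosome 8 goes from 9.82% to 3.68%, whereas chromosome 17 stays at 9.64%.

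Genes of basic cell machinery, classed by their symbols, were named at shared regions more often than elsewhere in the table. They made up 52 of the 634 genes (8.20%, 6.19% to 10.6%), against 182 of the 4137 protein-coding genes without a shared region (4.40%, 3.79% to 5.07%). Mitochondrial ribosomal proteins were 9 of 634 and 9 of 4137, subunits of the respiratory chain 8 and 8, and chaperones 9 and 15. In vesicle transport it was 2 against 30 (0.315% and 0.725%), and in the cell cycle class, which by its letters also takes Cdc42ep1, 1 against 22. Most of these genes were paired with a gene of another kind, and only 3 of the 56 pairs with such a gene held 2 of them.

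Ndufb10 of respiratory complex I and Rps2 of the small ribosomal subunit shared a region at 1244 reads per kb, Mcm7 of the replicative helicase and the adaptor subunit Ap4m1 one at 519, and Mcm8 and the tRNA methyltransferase subunit Trmt6 one at 423. Psmb1, a proteasome subunit, and Tbp, the TATA-binding protein, stood at 1297 reads per kb. Of the 34 neighbouring pairs with such a gene and known strand, 23 were divergent, 20 of them with start sites within 1000 bp. Mrps12 and Sars2, a mitochondrial ribosomal protein and a mitochondrial tRNA synthetase, were such a pair, at 621 reads per kb.

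Pairs with a shared symbol stem, taken as paralogues, were a minority. Such a stem was found in 25 of 369 pairs (6.78%). The 100 pairs with a predicted, clone or Rik name and the 8 with the same symbol could not count, but stay among the 369. Regions of 3 or 4 related genes, such as that of the Ugt1a genes, gave several of the 25 pairs. Among the 248 neighbouring pairs it was 18 (7.26%, 4.36% to 11.2%), against 15.1% (14.7% to 15.6%) of all neighbouring pairs. That last set includes genes without any region. Stems were not counted for neighbours with a region but none shared, and the choice of pairs bears on this contrast too. The contrast was not tested. Symbols stand in here for sequence identity, and some stems join genes that are not related, such as Surf1 and Surf2 of the surfeit cluster. Pairs of histone genes gave 5 shared regions, each with 2 or 3 of them, at 409 to 982 reads per kb, the highest at Hist2h2bb and Hist2h3b. Clec1a and Clec9a, lectin receptors, shared a region at 1118 reads per kb, S100a1 and S100a13, calcium-binding proteins, one at 1057, and Icam1 and Icam4, adhesion molecules, one at 775. Mapk11 and Mapk12, p38 kinases, had 330 reads per kb and the prion gene Prnp with Prnd had 549.97.

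Among the lists of blood, vessel and signalling genes, blood transcription factors had the most members named through shared regions alone. Most of these members shared them only with gene models of clone names. For 529 of the 634 genes every region was shared, which is 11.1% of the protein-coding genes in the table. Of 26 blood transcription factors 15 had a region, 5 had a shared one and 4 had no other. Lyl1, a relative of Tal1, shared its only region with Nfix and Trmt1, with 7039 reads over 5550 bp at 1268 reads per kb (1239 to 1298). Runx2, a sister gene of Runx1, shared its only region with AC165141.1, with 722 reads at 498 reads per kb. All 3 regions of Zfpm1 (1341 reads per kb over the gene) and all 3 of Cbfa2t3 (1317) were shared with AC114005.5, and without that model 2 of the 4 remained. AC165141.1, the partner of Runx2, is a clone name as well, so only Lyl1 shared with genes of other names. Gata3 had 1 shared region of 3, with 996 reads per kb, named also for 4930412O13Rik and 9230102O04Rik.

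Of 26 endothelial genes 22 had a region, and 2 of them, Egfl7 and Nos3, a shared one beside another. The region of Nos3, the endothelial nitric oxide synthase, and Atg9b had 525 reads per kb. Of 28 adhesion and migration genes with a region 1, Ilk, had a shared region, and of 14 matrix genes 2, Timp3 and the membrane metalloproteinase Mmp14, whose region shared with Mrpl52 had no count of its own. No shared region was found at the 11 guidance genes or the 14 BMP, TGF-beta and Notch genes with a region. These counts stand beside 634 of 4771 (13.3%) for all protein-coding genes in the table.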

How the data were processed

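The deposited table of the whole series holds, per the file headers, a read count per gene, summed over the regions assigned to it, and a second signal, reads per kb, which equalled the count over the summed region length (end minus start plus 1) within 0.005 in all 5867 genes. Coordinates are in mm9, the build that the submitters' processing notes name. For the aligner, the region caller and the comparison with Dam: not given in the sources used here. Columns with values of single libraries numbered 0, so no test between groups was possible.

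Region counts came from genes with 1 region or by subtraction, tested on simulated counts, where all 3952 recovered counts were right. Widths printed are end minus start, and reads per kb of a region use that plus 1 base. Intervals are exact Clopper-Pearson or Poisson at 95%. Gene symbols were matched by name, then synonym, on the same chromosome to RefSeq (GRCm38.p6), for 608 of 634 genes (95.9%), for order, distance and length only. Strand and start sites came from RefSeq promoter windows of 250 bases before and 50 after each start (480 genes, 75.7%), using the closest starts of a pair. Python 3.11.15, pandas 2.3.3, NumPy 2.4.6 and SciPy 1.17.1 were used.

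Genes named are those of regions with 4 or more genes, the 10 highest and 3 lowest reads per kb (1 is not reported here), the 5 widest, pairs sharing 3 or more regions, paralogue and housekeeping pairs and list genes. Other pairs were chosen after their values were seen. Regions, lists and classes were chosen with earlier results of these data known. Paralogues were taken by a shared symbol stem, in place of protein identity, which was not used here.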

Additional observations from a re-analysis of the deposited data

How the results depend on the processing

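The number of shared regions was 365, and 258 without genes of predicted, clone or Rik names, 352 on autosomes, 365 with overlapping regions joined and 322 without AC114005.5, Fgfr2 and Arfip1, that last setting having been added after seeing the data. Shared regions were wider by 200 to 250 bp at the median in each setting run. Among regions with a count of their own, shared ones were higher by 17.7 to 31.1 reads per kb. Divided by the chromosome median the difference was 0.0468, beside 0.0403 of the unshared median. The share on chromosome 8 moved from 9.82% to 2.43% without predicted, clone or Rik names and to 3.68% without the 3 genes. Blood transcription factors with shared regions only went from 4 to 2 without the 3 genes, and of these 2 Runx2 had only a clone name as partner. Divergent pairs were 51.9% without predicted, clone or Rik names. The excess of housekeeping genes was 3.80 percentage points, and 3.22 against genes with exactly 1 region. Of 13 named regions, 10 kept their distance from the median within 1.5 times when scaled by chromosome, and those on chromosome X moved closer to it. The protein identity limits for paralogues were not run. No paired analysis was possible because the table holds no value per library, and leaving out a replicate was not possible for that reason.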

Other observations

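Another 34 regions between the ends of AC114005.5 carried no other protein-coding gene, and likewise 7 for Fgfr2 and 2 for Arfip1. Of the genes with shared regions only, 23 had all of them at 1 of these 3 genes. For 2010111I01Rik and Fancc, a gene of the Fanconi DNA repair pathway, 3 shared regions were listed, for Atp5o and the endocytic scaffold gene Itsn1 3, for 2610528E23Rik and Filip1l 4, and for Arid3b and Gm17231 4.

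In 191 shared regions the region was the only one of 2 or more of its genes, and the deposited reads were equal in those rows in all 191.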
